A study of Homo sapiens with 46 samples.

Results

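The 7 genes described here are each transcribed as a long RNA that carries 1 or more microRNA precursors: MIR17HG, MIR302CHG, MIR99AHG, MIR100HG, MIR22HG, MIR4435-2HG and DLEU2. They were found by gene name in the 4 transcript assemblies made separately for human pluripotent stem cells (hPSC) and for ectoderm, endoderm and mesoderm cells. Of the 7 named genes, 6 were listed in at least 1 of these assemblies, out of 21183 Ensembl genes in any of them. The hPSC assembly held 3 (MIR17HG, MIR302CHG and MIR4435-2HG, with 6 transcripts). The ectoderm assembly held 5 (DLEU2, MIR100HG, MIR22HG, MIR302CHG and MIR4435-2HG, with 17 transcripts). The endoderm assembly held 3 (MIR22HG, MIR302CHG and MIR4435-2HG, with 12 transcripts), and the mesoderm assembly held 3 (MIR100HG, MIR22HG and MIR4435-2HG, with 12 transcripts). MIR99AHG was listed in none of them and has no value here. An assembly that does not list a gene gives no count for it, which is not a measured level of 0.

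The hPSC were the H1 line, an established human embryonic stem cell line, grown on Matrigel in mTeSR1 without a germ layer treatment. Endoderm was made from them with WNT3A and Activin A. Mesoderm was made with Activin A for the first day and with BMP4, VEGF and bFGF, and ectoderm with the inhibitors A83-01, PNU-74654 and Dorsomorphin. The differentiating cells were harvested at 5 days. From each cell type, RNA was taken from the cytoplasm, from the whole nucleus, from the nucleoplasm (nuclear RNA not bound to the pellet) and from the chromatin pellet, all with α-amanitin, which blocks RNA polymerase II, in the lysis buffers. There were 46 libraries in 16 groups, with 3 libraries in each group and 1 in mesoderm nucleoplasm. All cells derive from 1 line, and the labels call the libraries repeats without saying whether these came from separate cultures, so the p-values measure only the spread between these libraries.

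A microRNA host transcript is made by RNA polymerase II as a primary transcript. The Microprocessor complex, DROSHA with DGCR8, cuts hairpins out of it in the nucleus, largely while it is still attached to chromatin. Dicer then trims each hairpin in the cytoplasm to a mature microRNA, whose seed (bases 2 to 8) pairs with target mRNAs. The miR-302/367 cluster is the most abundant microRNA cluster of human pluripotent cells, and the miR-17-92 cluster of MIR17HG promotes proliferation in many cell types. The counts analysed here are of the long host RNAs, and mature microRNAs were not measured.

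The mature products show how the hosts are related, so the shared seeds and the main product of each host are printed here from RefSeq (GRCh38.p14), with the seed in capitals. The products of the 7 hosts that matched were 20 distinct mature sequences with 11 distinct seeds.
hsa-miR-302a-3p: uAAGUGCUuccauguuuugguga
hsa-miR-302b-3p: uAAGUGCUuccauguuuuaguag
hsa-miR-302c-3p: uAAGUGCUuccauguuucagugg
hsa-miR-302d-3p: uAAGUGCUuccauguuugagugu
hsa-miR-367-3p: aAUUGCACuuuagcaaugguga
hsa-miR-92a-3p: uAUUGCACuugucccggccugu
hsa-miR-17-5p: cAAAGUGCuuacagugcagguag
hsa-miR-20a-5p: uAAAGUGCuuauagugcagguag
hsa-miR-19a-3p: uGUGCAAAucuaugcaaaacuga
hsa-miR-22-3p: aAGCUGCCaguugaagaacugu
hsa-miR-4435: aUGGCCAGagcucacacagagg
hsa-miR-16-5p: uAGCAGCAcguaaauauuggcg
hsa-miR-15a-5p: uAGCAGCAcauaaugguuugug
hsa-miR-100-5p: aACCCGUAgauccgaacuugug
hsa-miR-99a-5p: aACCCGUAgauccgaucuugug
hsa-let-7a-5p: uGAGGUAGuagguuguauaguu
hsa-let-7c-5p: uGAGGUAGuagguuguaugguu
hsa-miR-125b-5p: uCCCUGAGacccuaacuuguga

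The 4 members of the miR-302 family share 1 seed. The seed of miR-367 from MIR302CHG is the same as that of miR-92a from MIR17HG, so these hosts of different chromosomes carry a common seed. MIR100HG and MIR99AHG carry paired products, with the same seed in miR-100 and miR-99a and another in let-7a and let-7c, and the mature sequence of miR-125b is encoded by both.

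By GENCODE 29 on GRCh38, MIR302CHG lies on the minus strand at chr4:112646476-112650051, where that release names it AC106864.1. Of its 5 hairpins, within chr4:112647874-112648557, those of miR-367, miR-302d, miR-302a and miR-302c are intronic in all 3 annotated transcripts, and that of miR-302b in 2 of the 3. MIR17HG lies on the plus strand at chr13:91347820-91354579, and its 6 hairpins, within chr13:91350605-91351391, are in an exon of 2 of its 3 annotated transcripts and in an intron of the other. MIR22HG, minus strand at chr17:1711493-1717174, has its single hairpin in an exon of all 19 annotated transcripts. MIR4435-2HG (minus strand, chr2:111036776-111523376), DLEU2 (minus strand, chr13:49982552-50125720), MIR100HG (minus strand, chr11:122028327-122556721) and MIR99AHG (plus strand, chr21:15928296-16645065) have no hairpin within an annotated exon. In MIR302CHG, 40.6% of its 743 annotated exon bases overlap exons of LARP7, a protein-coding gene of the opposite strand. The labels name an NEBNext Ultra kit and no strand-specific step, so in such stretches reads of the 2 genes cannot be told apart.

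The library totals ran from 4990408 to 21298678 counts, at which the limit that a count of 0 allows (3 counts) lies between 0.141 and 0.601 CPM, which are counts divided by the library total and scaled to a common size. Of 45 pairs of replicate libraries, 0 were identical, and the least different pair still had a chi-squared of 4.58 per degree of freedom. All 6 cytoplasmic mRNA controls were lower on chromatin than in the cytoplasm in each cell type, for example EEF1A1, ACTB and GAPDH. The nuclear RNA controls were not as uniform: MALAT1, a nuclear speckle RNA, was lower on chromatin in hPSC (137 against 232 CPM on average) and in ectoderm (725 against 1661 CPM), and higher in endoderm and mesoderm, while SNHG14 was higher in all 4 cell types. NEAT1, the scaffold RNA of paraspeckles, was lower on chromatin in hPSC (log2 change -1.28) and ectoderm (-1.03) and higher in mesoderm (1.74). Marker genes were compared in cytoplasm. They were highest in their own cell type for 4 of 6 hPSC markers and 4 of the 5 listed ectoderm markers. In endoderm this held for 7 of 7 markers and in mesoderm for 2 of the 6 listed. SOX17, FOXA2, CXCR4, GATA4, EOMES and CER1 were listed in endoderm alone, and LHX2 in ectoderm alone. For these no other cell type had a level to compare, so they could not come out otherwise. The summed hPSC markers ran from 7136 to 7942 CPM in hPSC and from 4568 to 5443 CPM in endoderm. They ran from 2148 to 2666 CPM in ectoderm and from 2605 to 2733 CPM in mesoderm. POU5F1 averaged 2954 CPM in hPSC, 1765 CPM in endoderm, 892 CPM in mesoderm and 6.22 CPM in ectoderm. The part of these levels in the results on MIR302CHG was not tested. In mesoderm the summed trophoblast or amnion markers (CDX2, GATA3 and TFAP2A) ran from 268 to 310 CPM, against 167 to 207 CPM in endoderm, 5.27 to 6.03 CPM in ectoderm and no listed value in hPSC. The summed fibroblast markers (COL1A1 and COL3A1) were also highest there, at 219 to 288 CPM. The part of these in the results on mesoderm was not tested. In bulk fractions, fewer cells of a type and less RNA per cell cannot be told apart.

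Levels of different genes were compared in TPM, the authors' length-corrected share of a library. On chromatin, MIR302CHG stood at rank 10 of 13670 genes in endoderm (7206 TPM on average) and at rank 17 of 15278 in hPSC (5177 TPM). The other hosts were far lower: MIR4435-2HG in mesoderm averaged 63.1 TPM on chromatin, MIR17HG in hPSC 36.1 TPM, and MIR22HG in endoderm 16.8 TPM. MIR100HG in mesoderm averaged 6.54 TPM and DLEU2 in ectoderm 3.27 TPM. The TPM ranks of MIR302CHG depend on its short isoforms, which weigh more in TPM than in counts. ENST00000505215 made up 4.2% of the gene's chromatin counts in hPSC and 1.7% in endoderm. Its far larger share of the hPSC TPM is given with the isoforms below. All further levels are in CPM unless TPM is named. The plot of all members by fraction gives every library.

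**Figure D1:**
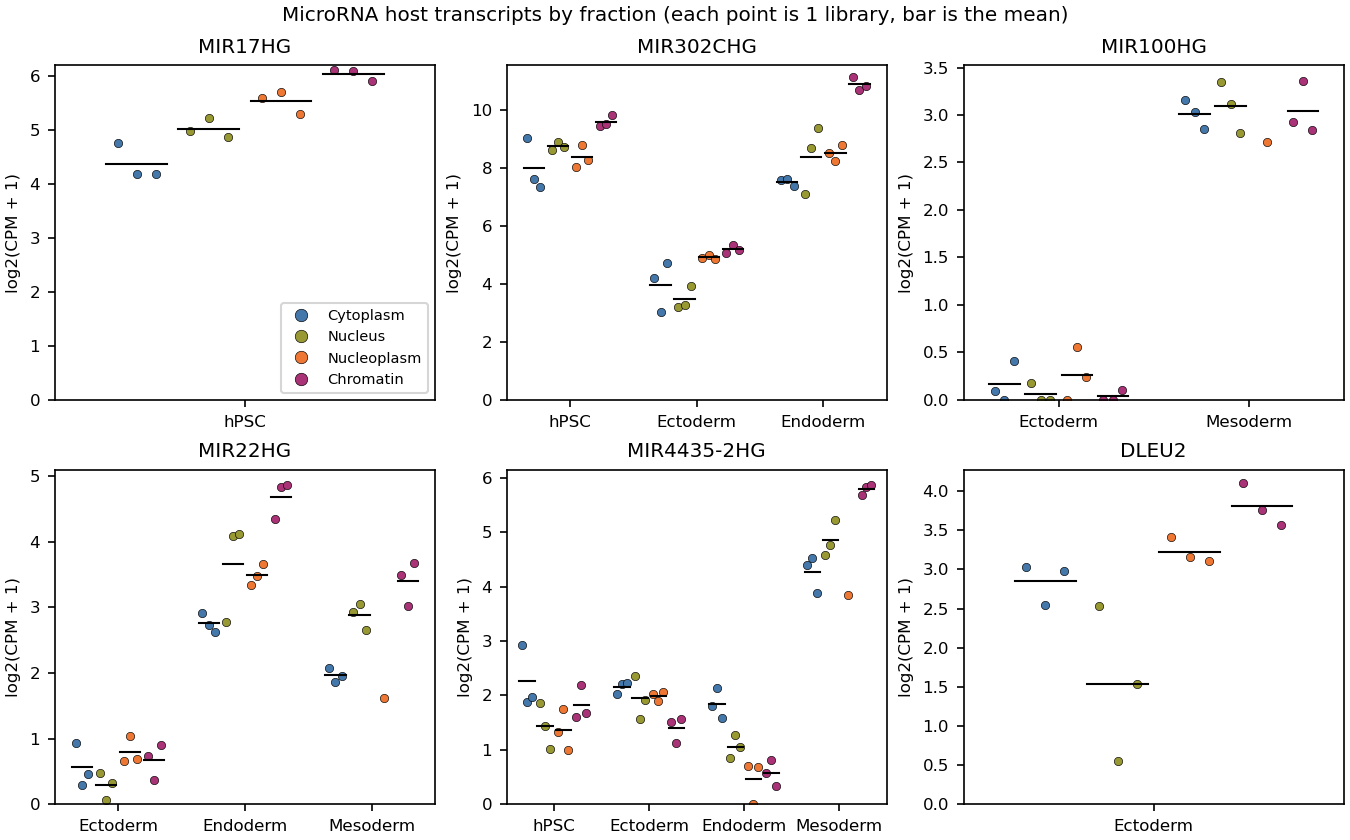
Level of each listed host gene in every library, as log2(CPM + 1), by cell type and fraction; each point is 1 library and each bar the mean of its group, and a cell type is absent where its assembly does not list the gene. MIR17HG steps up from cytoplasm to chromatin with no overlap between fractions, MIR302CHG is highest on chromatin in hPSC and endoderm, and MIR4435-2HG is highest in mesoderm chromatin.

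The first comparison sets the level of each host RNA on chromatin against that in the cytoplasm. Each level is a share of its own fraction's library, and no amount of RNA per fraction was used here. A higher level on chromatin thus does not show that most of the RNA is there, and whether it is retained was not tested. The miR-302/367 host was higher on chromatin in all 3 cell types that listed it, and MIR17HG, MIR22HG (endoderm and mesoderm) and MIR4435-2HG (mesoderm only) were also higher there. MIR4435-2HG went the other way in ectoderm and endoderm. In hPSC, 2 of the 3 members tested were higher, where 35.2% of all genes tested were higher and 28.2% lower (edgeR quasi-likelihood test, two-sided, Benjamini-Hochberg adjusted p under 0.05, as in every call below). In ectoderm, 1 of 4 was higher and 1 lower, against 29.0% and 31.7% of all genes. In endoderm, 2 of 3 were higher and 1 lower, against 37.7% and 35.3%. In mesoderm, 2 of 3 were higher and 0 lower, against 33.9% and 32.5%. With 3 or 4 members tested, such counts say little beyond these shares, so the size and spread of each gene's difference are given below. The members had median log2 changes of 1.24 (hPSC), 0.38 (ectoderm), 2.26 (endoderm) and 1.37 (mesoderm), beside 0.09, 0.01, 0.05 and 0.02 over all genes tested. MIR100HG in ectoderm did not pass the filter on low counts and was not tested, so the ectoderm numbers cover 4 of its 5 listed members.

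**Figure D2:**
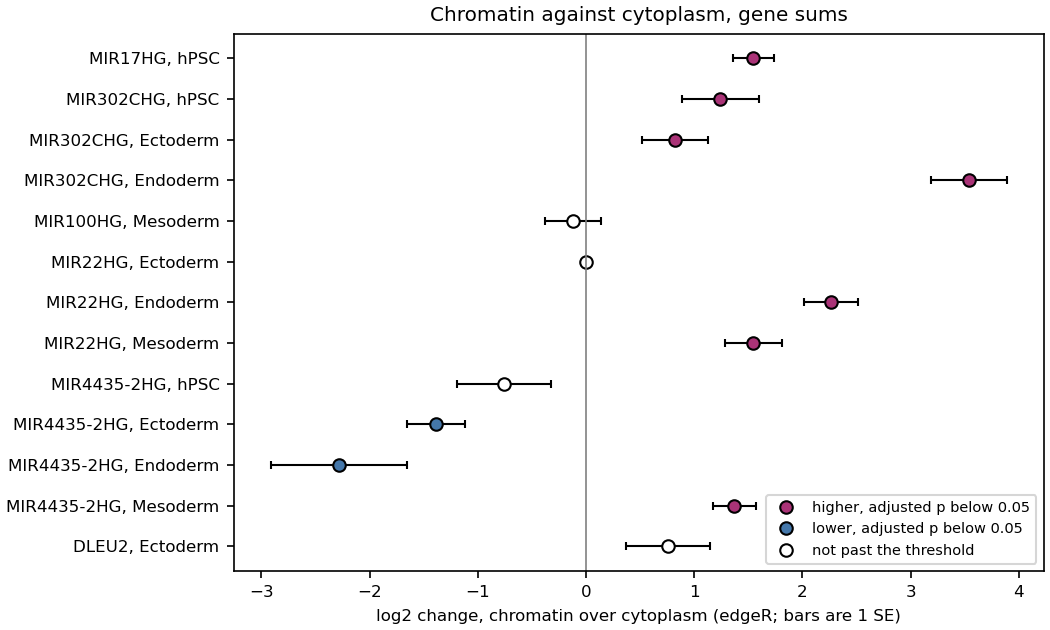
Log2 change of chromatin over cytoplasm for each host gene and cell type tested, from gene sums; bars are 1 standard error, colours show which passed an adjusted p of 0.05 and in which direction, and MIR22HG in ectoderm, at 0.00, is drawn without a bar. MIR302CHG in endoderm is farthest to the right at 3.54, and MIR4435-2HG lies on both sides of 0, from -2.28 in endoderm to 1.37 in mesoderm.

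MIR302CHG, the host of the miR-302/367 cluster, was on average 2.65-fold higher on chromatin than in the cytoplasm of hPSC by CPM. The hPSC cytoplasm libraries held 522, 199 and 164 CPM and the chromatin libraries 696, 739 and 911 CPM. The first cytoplasm library stood well above the other two, yet the groups did not overlap. The fitted log2 change was 1.24 (SE 0.36, n = 3 and 3, edgeR adjusted p = 0.00818), and without hPSC cytoplasm replicate 1 it was 1.98. The nucleoplasm libraries, at 264, 450 and 312 CPM, and the nucleus libraries, at 398, 483 and 425 CPM, overlapped with the cytoplasm.

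In endoderm the same RNA showed the largest difference between chromatin and cytoplasm of any member in any cell type by CPM and in the count fit. The cytoplasm libraries held 193, 196 and 165 CPM, and the chromatin libraries 2277, 1663 and 1835 CPM. The lowest chromatin library was thus several times the highest cytoplasm library, and the log2 change was 3.54 (SE 0.35, edgeR adjusted p = 4.06e-07). The nucleoplasm libraries held 371, 301 and 449 CPM, and the nucleus libraries ranged widely, at 137, 413 and 667 CPM. Between cytoplasm and nucleus the libraries overlapped. On TPM the ratio of chromatin to cytoplasm was smaller, 2.81 in place of 10.4 by CPM, with the difference still past the threshold (limma, adjusted p = 0.000693). By TPM that ratio lay below those of MIR22HG in mesoderm (6.54) and endoderm (5.92) and of MIR17HG in hPSC (5.47).

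In ectoderm the level was far lower in every fraction. The cytoplasm libraries held 17.3, 7.21 and 25.2 CPM, the nucleus libraries 8.27, 8.69 and 14.4 CPM, the nucleoplasm libraries 28.9, 31.4 and 28.2 CPM, and the chromatin libraries 32.8, 39.6 and 35.2 CPM. Chromatin was the highest fraction, with no overlap. The log2 change of chromatin over cytoplasm was 0.82 (SE 0.30, edgeR adjusted p = 0.0324). This call was lost without ectoderm cytoplasm replicate 1 (0.90, edgeR adjusted p = 0.0523), without cytoplasm replicate 2 (0.48, adjusted p = 0.0964) and without chromatin replicate 2 (0.79, adjusted p = 0.0677).

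The isoforms of MIR302CHG differed in where they were found, and isoform counts are the authors' division of reads, so they are less certain than gene sums. In hPSC the isoform ENST00000688371 made up 81.0% of the gene's chromatin counts and 35.8% of its cytoplasm counts. Its cytoplasm libraries held 159, 69.8 and 75.2 CPM and its chromatin libraries 556, 561 and 786 CPM, with no overlap and a log2 change of 2.43 (SE 0.32, edgeR adjusted p = 0.000246). The isoform ENST00000509938 showed no such difference, with 298, 104 and 69.9 CPM in cytoplasm and 106, 134 and 105 CPM on chromatin (log2 change -0.67, adjusted p = 0.291). The third, ENST00000505215, had a log2 change of -0.36 (adjusted p = 0.651). Counting all members, 2 of 6 isoforms tested in hPSC were higher on chromatin and 1 lower, where 38.8% of all transcripts were called in either direction.

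The same split was seen in endoderm, where 3 of the 8 member isoforms tested were higher on chromatin and 0 lower, against 49.7% of all transcripts called. All 3 were of MIR302CHG. ENST00000688371 held 35.4, 39.0 and 17.8 CPM in cytoplasm and 1036, 832 and 794 CPM on chromatin (log2 change 4.71, SE 0.54, edgeR adjusted p = 4.14e-05). An isoform with no Ensembl ID, the second most abundant, held 32.7, 53.0 and 29.8 CPM in cytoplasm and 549, 401 and 554 CPM on chromatin (log2 change 3.55, SE 0.48, adjusted p = 0.000133). ENST00000691790 changed by 4.48 (SE 0.46, adjusted p = 1.85e-05). For these isoforms no chromatin library overlapped with a cytoplasm library. ENST00000509938, with a log2 change of -0.37, and ENST00000505215, with 0.05, did not pass the threshold. In ectoderm ENST00000688371 (20.9, 22.2 and 19.0 CPM on chromatin against 10.7, 2.27 and 8.82 CPM in cytoplasm) had a log2 change of 1.10 (adjusted p = 0.0798) and ENST00000691790 one of 1.17 (adjusted p = 0.0891), so neither was called. Among the 12 member isoforms tested in ectoderm, 0 were higher and 1 was lower (that of MIR4435-2HG named below), where 28.0% of all transcripts were called.

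**Figure D3:**
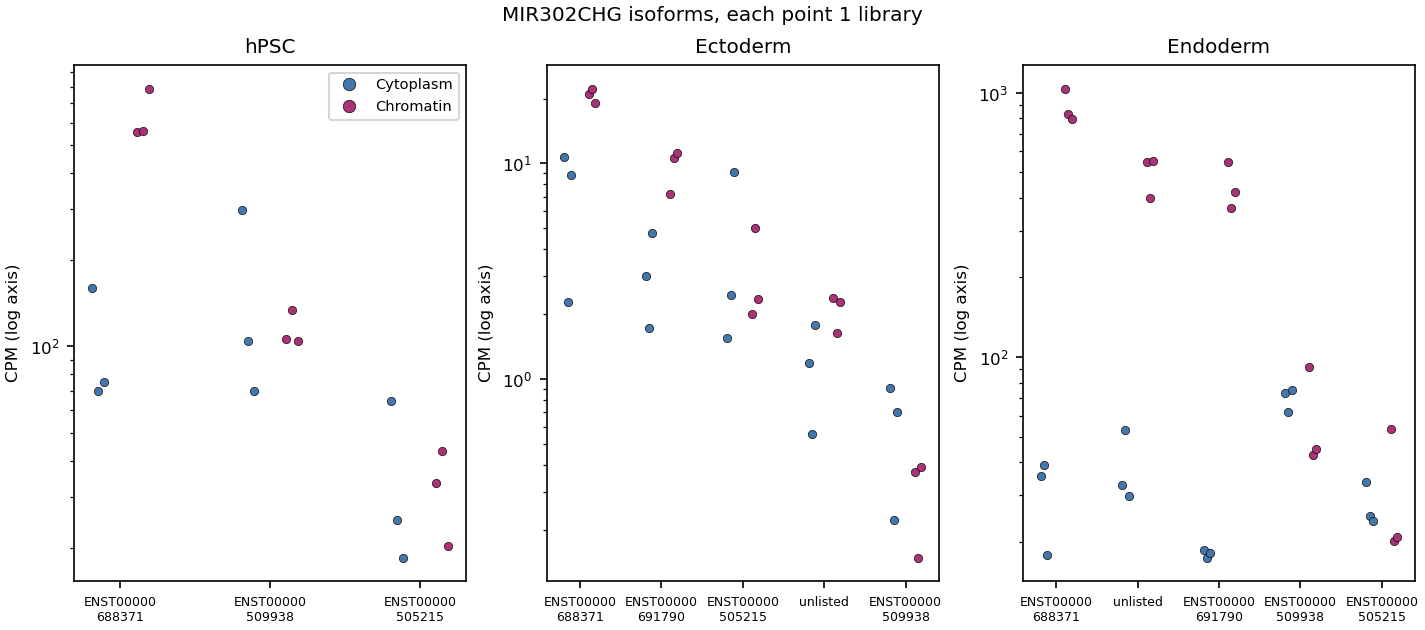
CPM of each MIR302CHG isoform in cytoplasm and chromatin libraries on a log axis, with 1 panel per cell type; each point is 1 library, and "unlisted" is the isoform with no Ensembl ID. ENST00000688371 is separated between fractions in all 3 cell types, while ENST00000509938 and ENST00000505215 overlap in hPSC and endoderm.

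The MIR302CHG isoforms called higher on chromatin were the longer ones. The length of a transcript can be read from the ratio of its count to its TPM, calibrated against annotated transcripts of 800 to 6000 nt (median error 1.39% to 2.16% per library). This gave 1993 nt for ENST00000688371 in hPSC and 1997 nt in endoderm, 811 nt for ENST00000691790 and 726 nt for the unlisted isoform in endoderm. The other isoforms came out at 343 nt (ENST00000505215) and 406 nt (ENST00000509938) in hPSC, while GENCODE 29 gives them as 294 and 345 nt. Lengths under 800 nt lie outside the calibrated range, and these 2 are above their annotated values by more than the quoted error. GENCODE 29 does not list ENST00000688371 or ENST00000691790, so whether their exons contain the hairpins was not determined here. A short isoform weighs more in TPM than in counts: ENST00000505215 made up 4.2% of the counts of MIR302CHG on hPSC chromatin and 48.0% of its TPM.

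Against the nucleoplasm, MIR302CHG was higher on chromatin in endoderm (log2 change 1.78, SE 0.33, edgeR adjusted p = 0.000333). The values were 0.96 in hPSC (adjusted p = 0.0578) and 0.00 in ectoderm (adjusted p = 0.996). In this comparison 0 of 3 members were called in hPSC, where 30.4% of all genes were, 1 of 4 in ectoderm (44.1%) and 2 of 3 in endoderm (53.4%). The 2 in endoderm were MIR302CHG and MIR22HG, both higher. The 1 in ectoderm was MIR4435-2HG, which was lower on chromatin (-1.15, SE 0.28, edgeR adjusted p = 0.00467). That call held in 11 of 13 alternatives and was lost on the combined assembly (-0.45, adjusted p = 0.121). The hPSC count of 0 became 2 with library totals in place of TMM scaling and 2 with limma on TPM, MIR17HG and MIR302CHG in each case, and 0 with DESeq2. Over the 3 hPSC members, 1 had an unadjusted p under 0.05. Mesoderm has 1 nucleoplasm library and was not tested.

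MIR17HG, the host of the miR-17-92 cluster, was higher on chromatin than in the cytoplasm of hPSC, with the nucleus and nucleoplasm between them. The cytoplasm libraries held 26.1, 17.2 and 17.2 CPM, the nucleus libraries 30.6, 36.3 and 28.4 CPM, the nucleoplasm libraries 47.4, 51.1 and 38.6 CPM, and the chromatin libraries 68.0, 67.5 and 59.1 CPM. No library of a fraction overlapped with one of the next. The log2 change of chromatin over cytoplasm was 1.55 (SE 0.19, edgeR adjusted p = 1.43e-05), and that of nucleus over cytoplasm 0.73 (SE 0.19, adjusted p = 0.00428). Chromatin over nucleoplasm came to 0.27 (adjusted p = 0.288) after TMM scaling. With library totals it was 0.51 (adjusted p = 0.0347) and with limma on TPM 0.82 (adjusted p = 0.000881).

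MIR17HG was assembled as 1 transcript with no Ensembl ID, whose length came to 3211 nt, beyond the longest annotated transcript of the gene (2845 nt). The ectoderm assembly did not list it, but a combined assembly, deposited for the ectoderm libraries, did. There the cytoplasm held 5.90, 3.42 and 5.04 CPM and chromatin 12.0, 13.1 and 12.1 CPM, again with no overlap. The log2 change was 1.13 (SE 0.28, edgeR adjusted p = 0.00374), where 30.7% of the genes of that assembly were higher on chromatin.

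MIR22HG, whose exon holds the miR-22 hairpin, was higher on chromatin in endoderm and mesoderm and near the detection limit in ectoderm. In endoderm the cytoplasm held 6.54, 5.66 and 5.14 CPM, the nucleoplasm 9.14, 10.2 and 11.6 CPM, and chromatin 19.3, 27.6 and 28.0 CPM. The 3 fractions did not overlap, and the nucleus libraries, at 5.84, 16.0 and 16.3 CPM, spread across them. The log2 change of chromatin over cytoplasm was 2.26 (SE 0.25, edgeR adjusted p = 1.25e-06). Over nucleoplasm it was 0.69 (adjusted p = 0.0244), a call lost without endoderm nucleoplasm replicate 1 or 2 or chromatin replicate 2 or 3, where values ran from 0.60 to 0.68.

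In mesoderm MIR22HG was also higher on chromatin than in cytoplasm, at a lower level. The cytoplasm held 3.19, 2.62 and 2.89 CPM and chromatin 10.2, 7.07 and 11.8 CPM, without overlap (log2 change 1.55, SE 0.26, edgeR adjusted p = 0.000344). The single nucleoplasm library held 2.06 CPM, below each of the other mesoderm libraries. In ectoderm no fraction exceeded 1.06 CPM, the cytoplasm and chromatin libraries overlapped, and the log2 change was 0.00 (95% interval -1.05 to 1.05). On the combined assembly, with 5 isoforms in place of 1, the same libraries reached 2.08 CPM on chromatin, and the change was 0.52 (adjusted p = 0.411). The mesoderm isoform, without an Ensembl ID, was higher on chromatin (1.16, SE 0.35, adjusted p = 0.0297). That call was lost without mesoderm cytoplasm replicate 1, 2 or 3 or chromatin replicate 1 or 3, where the value ran from 0.96 to 1.23. The 2 endoderm isoforms tested did not pass (2.33, adjusted p = 0.251, for the unlisted one, and 1.86, adjusted p = 0.422, for ENST00000574306). Their libraries spread widely: ENST00000574306 held 3.09, 0 and 15.7 CPM on chromatin, so the gene sum is the steadier value.

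By gene sums, MIR4435-2HG was the only member called higher on chromatin than in cytoplasm in 1 cell type and lower in others. It was also the only member listed in all 4 assemblies, and its sums cover 10 transcripts in mesoderm but 1 in endoderm. It is a long non-coding RNA known for its part in myeloid cell survival. It has a near-identical copy, CYTOR, so its counts are uncertain, and values with CYTOR added are given where they change a call. In ectoderm the cytoplasm held 3.08, 3.61 and 3.68 CPM and chromatin 1.85, 1.18 and 1.95 CPM (log2 change -1.39, SE 0.27, edgeR adjusted p = 0.000571). In endoderm the cytoplasm held 2.51, 3.41 and 2.01 CPM and chromatin 0.487, 0.760 and 0.255 CPM (-2.28, SE 0.63, edgeR adjusted p = 0.00455). The endoderm chromatin values rest on 6, 6 and 3 counts, near the detection limit. The libraries did not overlap in either cell type. The ectoderm difference was -0.44 on the combined assembly (adjusted p = 0.0955), which lists 13 transcripts of the gene in place of 4.

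In mesoderm the order was turned. The cytoplasm held 20.0, 22.2 and 13.8 CPM, the nucleus 23.1, 26.3 and 36.3 CPM, and chromatin 50.7, 56.3 and 57.3 CPM. Chromatin stood above every other mesoderm library, and the log2 change over cytoplasm was 1.37 (SE 0.20, edgeR adjusted p = 0.000123). With limma on TPM the value was 0.38 (adjusted p = 0.223), and the call was lost. In hPSC the cytoplasm held 6.60, 2.67 and 2.92 CPM and chromatin 2.03, 3.56 and 2.18 CPM, which overlap (-0.76, SE 0.43, adjusted p = 0.142). With CYTOR added the hPSC value was -1.33 (adjusted p = 0.00333). CYTOR alone was lower on chromatin in hPSC (1.57 against 5.47 CPM on average) and in endoderm (0.756 against 3.91 CPM).

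The isoforms of MIR4435-2HG did not all follow the gene sum. ENST00000409569, the isoform found in all 4 assemblies, was lower on chromatin in hPSC (-1.72, SE 0.56, edgeR adjusted p = 0.0340), in ectoderm (-2.27, SE 0.61, adjusted p = 0.0178) and in mesoderm (-2.03, SE 0.65, adjusted p = 0.0379), where the gene sum was higher. In endoderm, where it is the only isoform, the value was -2.52 (adjusted p = 0.0682). The other main isoforms, ENST00000669515 in hPSC (1.05, adjusted p = 0.221) and one without an Ensembl ID in ectoderm (-1.30, adjusted p = 0.110), were not called. In mesoderm it held 5.80, 10.7 and 4.81 CPM in cytoplasm and 3.81, 0.684 and 3.47 CPM on chromatin, without overlap. These 3 calls rest on few libraries. The hPSC call was lost without cytoplasm replicate 1 (-1.05, adjusted p = 0.160), chromatin replicate 1 or chromatin replicate 3. The ectoderm call was lost without cytoplasm replicate 2 or 3 or any 1 chromatin replicate, with values from -2.45 to -2.13. The mesoderm call was lost without any 1 cytoplasm replicate or without chromatin replicate 1, with values from -2.32 to -1.54. None of the 3 passed with library totals (values from -1.83 to -1.43) or with limma on TPM (-0.55, -0.82 and -0.52).

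Of the 10 isoforms of MIR4435-2HG in mesoderm, 5 were higher on chromatin, 1 was lower and 4 were not called. With the single isoforms of MIR22HG and MIR100HG, 6 of the 12 member isoforms were higher and 1 lower, where 40.4% of all transcripts were called. The most abundant isoform, without an Ensembl ID and about 4729 nt long, held 7.55, 7.87 and 5.03 CPM in cytoplasm and 19.0, 18.7 and 18.1 CPM on chromatin (log2 change 0.87, SE 0.27, edgeR adjusted p = 0.0313). Its call was lost without mesoderm cytoplasm replicate 1 or 3 or chromatin replicate 2, where values ran from 0.76 to 0.90. A second isoform without an Ensembl ID held 0.391, 0.292 and 0.222 CPM in cytoplasm and 10.0, 11.3 and 10.9 CPM on chromatin (4.54, SE 0.71, adjusted p = 0.00197). Its share of the gene's counts was 1.6% in cytoplasm and 19.6% on chromatin. ENST00000656416 was also higher (2.09, SE 0.50, adjusted p = 0.0114). Another 2, without an Ensembl ID, were called higher from cytoplasm levels of at most 0.130 CPM, so that their fitted folds depend on the prior count. They held 2.20, 4.56 and 7.58 CPM, and 5.01, 4.22 and 5.52 CPM, on chromatin.

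**Figure D4:**
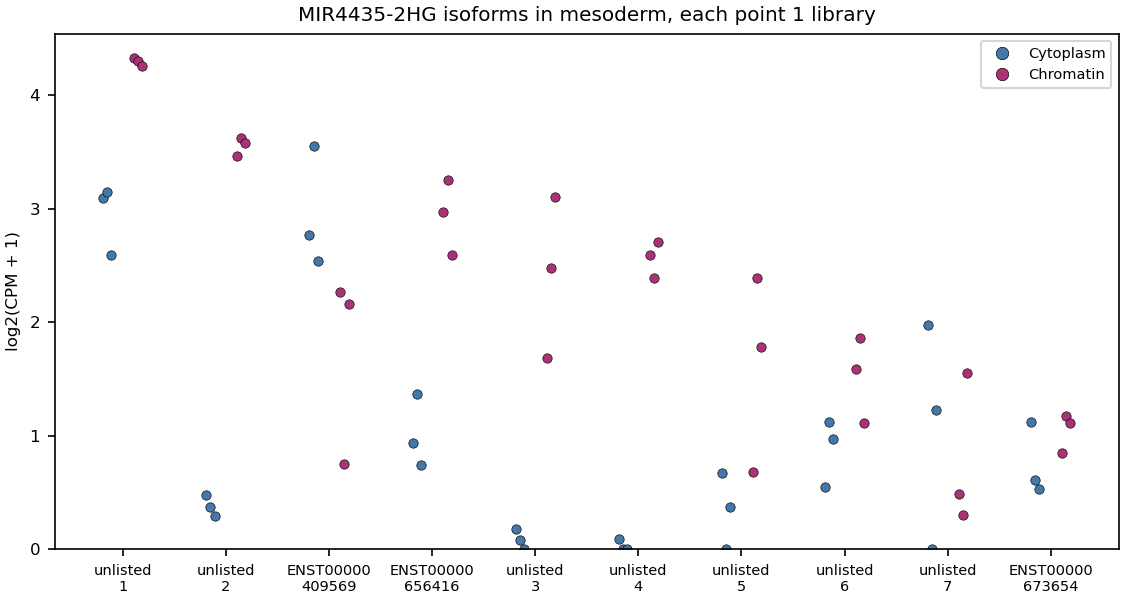
Level of each of the 10 MIR4435-2HG isoforms in the mesoderm cytoplasm and chromatin libraries, as log2(CPM + 1); each point is 1 library, and "unlisted" marks isoforms with no Ensembl ID. ENST00000409569 is the isoform called lower on chromatin, while 5 of the others lie higher there without overlap.

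DLEU2, the host of the miR-15a and miR-16 hairpins, was listed in ectoderm alone among the separate assemblies. The cytoplasm held 7.15, 4.83 and 6.87 CPM, the nucleus 4.78, 0.470 and 1.90 CPM, the nucleoplasm 9.66, 7.91 and 7.59 CPM, and chromatin 16.2, 12.5 and 10.9 CPM. Chromatin did not overlap with any other fraction, but the log2 change over cytoplasm after TMM scaling was 0.76 (SE 0.39, edgeR adjusted p = 0.107) and was not called. With limma on TPM it was 1.12 (adjusted p = 4.76e-05). The nucleus was lower than the cytoplasm (-1.31, SE 0.45, edgeR adjusted p = 0.0256), and this call was lost without ectoderm cytoplasm replicate 1 (-1.32, adjusted p = 0.0502) or nucleus replicate 3 (-1.25, adjusted p = 0.0736). Without nucleus replicate 1 the value was -2.07. None of its 5 isoforms tested with edgeR passed the adjusted threshold between chromatin and cytoplasm. The most abundant, without an Ensembl ID, held 1.82, 1.33 and 2.33 CPM in cytoplasm and 6.15, 4.59 and 3.13 CPM on chromatin (0.89, adjusted p = 0.358), and ENST00000433070 held 1.82, 2.16 and 0.974 CPM and 6.15, 4.29 and 4.38 CPM (1.10, adjusted p = 0.666). DLEU2 shares 346 of its 5103 annotated exon bases (6.78%) with TRIM13, a protein-coding gene of the opposite strand, which was itself higher on chromatin (0.53, adjusted p = 0.000327).

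MIR100HG, the host of miR-100, let-7a-2 and miR-125b-1, was not called between chromatin and cytoplasm of mesoderm by the count test. The cytoplasm held 7.94, 7.17 and 6.22 CPM, the nucleus 9.15, 7.66 and 6.02 CPM, and chromatin 6.61, 9.24 and 6.16 CPM, all overlapping. The single nucleoplasm library, at 5.56 CPM, lay below them. The log2 change of chromatin over cytoplasm was -0.12 (SE 0.26, edgeR adjusted p = 0.690), with library totals 0.05, and with limma on TPM 0.82 (adjusted p = 0.00432). The direction thus turned with the scaling and the unit. Nucleus over cytoplasm was 0.01 by counts and 0.93 with limma on TPM (adjusted p = 0.00196). In ectoderm it was near the detection limit, and its level depended on the assembly. The ectoderm assembly gave 1 count over the 3 chromatin libraries against 162 in mesoderm, a ratio of 299 per library total in favour of mesoderm (95% interval 53.0 to 11891, exact, counting error only). The ectoderm isoform is ENST00000654519 and the mesoderm isoform has no Ensembl ID, so this ratio sets different transcripts against each other. On the combined assembly the same ectoderm libraries held 26 counts on chromatin (0.620 CPM on average) and 28 in cytoplasm (0.549 CPM), against 7.34 and 7.11 CPM in mesoderm. The gap to mesoderm was thus far smaller there. A transcript assembled under the name MIR125B1 held 1.76, 1.05 and 1.63 CPM in mesoderm cytoplasm and 2.20, 8.67 and 3.34 CPM on chromatin. Its cytoplasm average of 1.48 CPM went with 0.207 TPM, so it is a long transcript and not the hairpin.

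The whole nucleus was set against the cytoplasm as well, a comparison that uses the same cytoplasm libraries. In hPSC 2 of 3 members were called (MIR17HG higher, as given above, and MIR4435-2HG lower), where 65.4% of all genes were called. In ectoderm 1 of 4 was called (DLEU2, lower), where 53.7% of all genes were called. In endoderm 2 of 3 were called, MIR22HG (log2 change 1.78, SE 0.25, edgeR adjusted p = 1.70e-05) and MIR302CHG (1.75, SE 0.33, adjusted p = 0.000243), both higher, where 69.7% of all genes were called. The endoderm value of MIR302CHG was -0.19 with limma on TPM. In mesoderm 2 of 3 were called, MIR22HG (1.04, SE 0.26, adjusted p = 0.00471) and MIR4435-2HG (0.50, SE 0.20, adjusted p = 0.0433), both higher, where 63.2% of all genes were called. With 3 or 4 members tested, these counts say little beyond the shares over all genes.

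Some of these nuclear calls rest on single libraries. The hPSC value of MIR4435-2HG, -1.09 (SE 0.45, edgeR adjusted p = 0.0463), was lost without cytoplasm replicate 1 (-0.57, adjusted p = 0.252), nucleus replicate 2 (-1.08) or nucleus replicate 3 (-0.81, adjusted p = 0.167). Its mesoderm value was lost without cytoplasm replicate 1 or 3 or nucleus replicate 2 or 3, with values from 0.33 to 0.56, and was 0.01 (adjusted p = 0.970) with CYTOR counts added. MIR302CHG in hPSC, 0.62 and not called (adjusted p = 0.142), was 1.35 without cytoplasm replicate 1 (adjusted p = 0.000238).

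The level on chromatin was next compared between cell types. MIR4435-2HG is the sole member listed in all 4 assemblies. Its order was mesoderm, hPSC, ectoderm and endoderm, at 54.8, 2.59, 1.66 and 0.501 CPM on average. The endoderm average rests on 15 counts over 3 libraries. Against hPSC chromatin, mesoderm was higher (log2 difference 4.51, SE 0.28, edgeR adjusted p = 2.23e-08) and endoderm lower (-2.24, SE 0.37, adjusted p = 0.000183), and ectoderm was not called (-0.63, SE 0.29, adjusted p = 0.0749). With limma on TPM the values were 2.46 for mesoderm and -1.14 for endoderm, both still called, and -0.99 for ectoderm (adjusted p = 0.0170). With CYTOR counts added, ectoderm was lower as well (-0.91, edgeR adjusted p = 0.0215). Over all genes, 54.5%, 61.8% and 62.9% were called in these comparisons, which share the hPSC libraries. Each assembly holds its own set of transcripts, so a gene sum can differ because other transcripts were assembled.

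MIR302CHG on chromatin was highest in endoderm and lowest in ectoderm, at 1925, 782 and 35.9 CPM in endoderm, hPSC and ectoderm. The libraries of these cell types did not overlap. Ectoderm was lower than hPSC (log2 difference -4.41, SE 0.17, edgeR adjusted p = 1.58e-06, with 69.7% of all genes called) and lower than endoderm (-5.95, SE 0.18, adjusted p = 1.25e-10, 72.8% called). Endoderm was higher than hPSC by CPM (1.55, SE 0.16, adjusted p = 0.000103, 63.6% called). That last difference shrank to 0.57 (adjusted p = 0.0142) over the transcripts that both assemblies list and to 0.45 with limma on TPM (adjusted p = 0.134).

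MIR22HG on chromatin was highest in endoderm, then mesoderm, then ectoderm, at 25.0, 9.70 and 0.608 CPM on average, with no overlap of libraries. Endoderm was higher than mesoderm (log2 difference 1.53, SE 0.26, edgeR adjusted p = 0.00118, with 34.1% of all genes called) and ectoderm lower than mesoderm (-4.03, SE 0.38, adjusted p = 2.33e-05, 48.6% called). The difference of ectoderm from endoderm was -5.56 (SE 0.30, adjusted p = 7.69e-09). On the combined assembly ectoderm chromatin averaged 1.37 CPM, still below the other cell types but by less. MIR100HG was lower in ectoderm than in mesoderm with the separate assemblies, where the sums rest on different transcripts. It passed the filter on low counts in that fit only through the mesoderm libraries, so its p-value is not given. The fitted size ran from -9.20 to -2.79 over the alternatives, the latter with limma on TPM, and the combined assembly was not part of that fit.

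Whether the step from cytoplasm to chromatin itself differed between cell types was tested as an interaction. For MIR4435-2HG the step was larger in mesoderm than in hPSC (log2 difference 2.18, SE 0.41, edgeR adjusted p = 0.000659) and smaller in endoderm (-1.60, SE 0.56, adjusted p = 0.0269), and ectoderm was not called (-0.46, SE 0.46, adjusted p = 0.525). Over all genes 23.0%, 40.8% and 23.3% were called. The mesoderm step was not called with limma on TPM (0.84, adjusted p = 0.226). These gene sums cover 10 transcripts in mesoderm, 4 in ectoderm, 2 in hPSC and 1 in endoderm. ENST00000409569, the isoform in all 4 assemblies, changed by -2.03 in mesoderm, -1.72 in hPSC and -2.52 in endoderm (not called there). A difference in step over shared transcripts alone was not tested for this gene. The endoderm call was lost without hPSC cytoplasm replicate 2 or 3, hPSC chromatin replicate 2, endoderm cytoplasm replicate 2, or endoderm chromatin replicate 1 or 3, with values from -1.62 to -1.27, and with CYTOR counts added (-0.94, adjusted p = 0.101).

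For MIR302CHG the step was larger in endoderm than in hPSC (2.25, SE 0.47, edgeR adjusted p = 0.00231, with 37.0% of all genes called) and smaller in ectoderm than in endoderm (-2.52, SE 0.36, adjusted p = 2.42e-05, 50.8% called). Both were small with limma on TPM (0.51, adjusted p = 0.350, and -0.20, adjusted p = 0.629), and without hPSC cytoplasm replicate 1 the first was 1.54. Ectoderm and hPSC were not told apart (-0.08, 95% interval -1.28 to 1.11, with 23.7% of all genes called). For MIR22HG the step was smaller in ectoderm than in endoderm (-2.05, SE 0.56, edgeR adjusted p = 0.00589). This call was lost without ectoderm cytoplasm replicate 1 (-1.44, edgeR adjusted p = 0.0644). The ectoderm side was near the detection limit, with 4 to 13 counts per cytoplasm library and 4 to 11 per chromatin library. On the combined assembly, which was not part of this fit, the ectoderm change was 0.52 in place of 0.00. Between endoderm and mesoderm the step of MIR22HG was not called (0.62, SE 0.32, edgeR adjusted p = 0.191, with 18.3% of all genes called).

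LARP7, whose exons overlap those of MIR302CHG on the opposite strand and which stabilises the 7SK RNA, was set beside it. LARP7 was lower on chromatin than in cytoplasm in ectoderm (-2.20, edgeR adjusted p = 1.31e-05) and endoderm (-1.05, adjusted p = 0.00189), the reverse of MIR302CHG, and was not called in hPSC (-0.56, adjusted p = 0.0526). In mesoderm, whose assembly does not list MIR302CHG, LARP7 was higher on chromatin, at 311, 191 and 125 CPM against 41.5, 53.7 and 42.0 CPM in cytoplasm (2.00, adjusted p = 0.000112). There an isoform without an Ensembl ID made up 85.9% of the LARP7 chromatin counts and 23.9% of the cytoplasm counts. Reads of the 2 strands cannot be told apart at this locus, so the mesoderm level of MIR302CHG was not determined.

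Other genes of the pathway were taken from lists, and counts are of genes that passed the test between chromatin and cytoplasm. Of 30 other genes named as microRNA hosts, 7 of 13 tested were higher and 1 lower in hPSC, 13 of 23 and 1 in ectoderm, 9 of 11 and 0 in endoderm, and 8 of 14 and 1 in mesoderm. Over all genes the shares were 35.2% higher and 28.2% lower, 29.0% and 31.7%, 37.7% and 35.3%, and 33.9% and 32.5%, in the same order. The median log2 changes of the list were 0.84, 0.65, 1.39 and 1.20, beside 0.09, 0.01, 0.05 and 0.02 over all genes. MIR600HG was higher in each of the 4 cell types (0.90, 0.88, 1.30 and 1.20), and MIR124-1HG, listed in hPSC and ectoderm, was higher in both (2.16 and 2.03). MIR1915HG was higher in hPSC (0.53) and endoderm (0.83). Protein-coding hosts of intronic microRNAs had medians of -0.09, -0.30, -0.30 and -0.33. In that list 3 of 20 were higher and 2 lower in hPSC, 2 and 11 of 21 in ectoderm, 8 and 9 of 19 in endoderm, and 6 and 9 of 21 in mesoderm, to be read against the same shares over all genes. HNRNPK, an mRNA for an RNA-binding protein, was lower in each cell type (-0.69, -1.55, -1.54 and -0.92). HUWE1, for a ubiquitin ligase, was higher in hPSC (0.81), endoderm (0.97) and mesoderm (1.54), and SREBF2, a regulator of cholesterol synthesis and host of miR-33a, in hPSC (1.09) and ectoderm (0.34).

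Among genes for microRNA processing and function, 9 of 18 were higher and 3 lower in hPSC, 8 and 4 of 18 in ectoderm, 10 and 5 of 17 in endoderm, and 9 and 4 of 17 in mesoderm. The shares over all genes given above were 35.2%, 29.0%, 37.7% and 33.9% higher, and the list's medians were 0.36, 0.26, 0.61 and 0.58. DDX17, a helicase of the Microprocessor, was higher on chromatin in each cell type (1.39, 1.22, 2.17 and 0.95). Its relative DDX5 was higher in ectoderm (0.65), endoderm (1.27) and mesoderm (0.88). LIN28A, which blocks let-7 maturation, was lower in ectoderm (-1.17), endoderm (-2.30) and mesoderm (-1.80) and not called in hPSC (-0.15).

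By correlation of log2(CPM + 1) over all 46 libraries, the genes most like MIR4435-2HG among 10616 were ENSG00000291178 (Pearson r = 0.946), LINC01535 (0.914) and IMMP2L (0.900). Over the 36 libraries of the 3 cell types that list it, MIR302CHG was most like SFXN5 (0.946), ENSG00000290888 (0.944) and UAP1L1 (0.944). The points of each group share a cell type and fraction, so these values describe levels that go together between groups.

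The scaling sets the share of genes called higher on chromatin than in cytoplasm. Going from hPSC through ectoderm and endoderm to mesoderm, it was 55.5%, 47.8%, 51.7% and 51.1% of called genes after TMM, 63.5%, 65.0%, 46.6% and 59.5% with library totals, and 90.7%, 92.1%, 63.3% and 88.8% with limma on TPM. Library totals moved the median log2 change of all genes by 0.14, 0.32, -0.16 and 0.18. The move was larger for endoderm nucleus against cytoplasm (-0.70) and for endoderm chromatin against nucleoplasm (0.58). The calls of MIR302CHG, MIR17HG and MIR22HG between chromatin and cytoplasm given above had the same direction and passed under all 3, while those of MIR4435-2HG and MIR100HG are named above where they did not.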

How the data were processed

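RNA of 4 cell fractions was sequenced in 46 libraries. Per the submitters' processing notes, STAR, RSEM and genome build hg38 were used, and the transcripts were assembled separately for each cell type, with 1 combined assembly for the ectoderm libraries, per the file headers. The authors deposited whole-number counts per transcript and, in separate tables, TPM (a length-corrected share of each library). Whether the counts are rounded estimates is not given in the sources used here. Column codes of the nuclear fraction were read as nucleus, and 2 columns matched no sample and were not used.

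Transcript counts were summed by Ensembl gene. Library totals were 4990408 to 21298678 counts. Fits used edgeR 4.0.16 (TMM scaling, genes kept by filterByExpr with a minimum count of 10, quasi-likelihood test, Benjamini-Hochberg adjustment over all genes tested), with the 4 fractions of 1 cell type in a fit. Between cell types, genes listed in all 4 assemblies were fitted together. Fits of pairs of cell types, the MIR302CHG fit over shared transcripts and the sums with CYTOR were chosen after seeing the data. Alternatives were library totals, no filter, DESeq2 1.42.0, limma 3.58.1 on log2(TPM + 1), the replicate number as a block, each replicate left out, and the combined assembly. An SE is the log2 change divided by the square root of F and is not given for changes near 0. An interval for a log2 change uses this SE with a normal multiplier, also near 0, so it is approximate and somewhat too narrow. Genes were placed on GENCODE 29 (GRCh38), the same build. All members were named, with the 2 most abundant isoforms of each in each cell type and any isoform called against its gene sum; further isoforms were named after their values were seen. From each list the 3 genes of highest mean CPM were named. The genes most like a member were those of highest Pearson correlation with a mean of at least 1 CPM. That rule was set for MIR4435-2HG and extended to MIR302CHG. The members and lists were chosen with earlier results of these data known. In data simulated for chromatin against cytoplasm in hPSC, over 14049 genes, 61% of genes changed by log2 1 and 94.9% of those changed by log2 2 were recovered. For isoforms of that comparison, over 27924 transcripts, recovery was 13.4% and 38.1%, so an isoform that was not called may still differ.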

Additional observations from a re-analysis of the deposited data

Results flagged for a closer look

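The step from cytoplasm to chromatin differed between cell types, by an interaction test (edgeR adjusted p under 0.05), in 5 cases. For MIR4435-2HG it was -1.60 in endoderm against hPSC and 2.18 in mesoderm against hPSC, comparisons that share the hPSC libraries. For MIR302CHG it was 2.25 in endoderm against hPSC and -2.52 in ectoderm against endoderm, which share the endoderm libraries. For MIR22HG it was -2.05 in ectoderm against endoderm. Over all genes, 40.8% (endoderm) and 23.0% (mesoderm) were called against hPSC. In the fits of pairs, 37.0% were called for endoderm against hPSC and 50.8% for ectoderm against endoderm. With limma on TPM neither MIR302CHG value was called (0.51 and -0.20), nor was the mesoderm value of MIR4435-2HG (0.84). The endoderm value of MIR4435-2HG passed in 11 of 18 alternatives and that of MIR22HG in 16 of 17.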

How the results depend on the processing

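The alternatives kept direction and side of the threshold in 437 of 509 values for single members, 346 of 418 for isoforms, 159 of 168 for pairs of cell types, and kept 456 of 504 counts within 1.5 times. The cause of the changes below was not tested.

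With limma on TPM, the genes called were 7777 in place of 4302 for hPSC chromatin against nucleoplasm, 5337 in place of 8589 for ectoderm nucleus against cytoplasm, and 1218 in place of 2495 and 1043 in place of 2457 for the difference in step of ectoderm and mesoderm from hPSC. Transcripts called in ectoderm were 22373 in place of 11694. Members called became 2 for hPSC chromatin against nucleoplasm (also 2 with library totals), 1 for endoderm nucleus against cytoplasm, 1 for ectoderm against hPSC chromatin and 0 for the mesoderm difference in step. Member isoforms called became 5 in endoderm and 6 in ectoderm (2 with library totals and 4 with DESeq2, from 1). On the combined assembly, ectoderm chromatin against nucleoplasm had 0 members called. For MIR302CHG, TPM gave 0.31 for the difference in step of ectoderm from hPSC, 0.45 for endoderm against hPSC chromatin, and 0.51 and -0.20 for the differences in step of endoderm from hPSC and ectoderm from endoderm. TPM turned the direction of MIR302CHG in endoderm nucleus against cytoplasm (-0.19), of MIR4435-2HG in mesoderm nucleus against cytoplasm (-0.33), of MIR100HG in mesoderm chromatin against cytoplasm (0.82, gene and isoform), and of the isoform ENST00000505215 in hPSC (0.99) and ectoderm (1.07).

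With 1 replicate left out, hPSC chromatin against nucleoplasm gave 2608 (without nucleoplasm replicate 1) to 4378 genes and 0 to 1 members. Members called ran from 1 to 2 for hPSC nucleus, ectoderm chromatin and mesoderm nucleus against cytoplasm and for endoderm chromatin against nucleoplasm, from 0 to 2 for ectoderm nucleus against cytoplasm, and from 0 to 1 for the endoderm difference in step. The mesoderm difference in step gave 1883 to 3727 genes (the latter without mesoderm chromatin replicate 3). Member isoforms called ran from 0 to 1 in ectoderm and 4 to 6 in mesoderm (7 with all libraries). The difference in step of MIR302CHG between ectoderm and hPSC ran from -0.91 to 0.36, and that of MIR22HG between ectoderm and endoderm from -2.36 to -1.44.

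Whether libraries of the same replicate number belong together was not settled. Deviations of same-numbered libraries correlated above 0.1 in 8 of 18 hPSC pairs and 6 of 18 ectoderm pairs. They did so in 3 of 18 endoderm pairs and 3 of 9 mesoderm pairs. The correlations ran from -0.52 (endoderm) to 0.37 (ectoderm), and for hPSC cytoplasm and nucleus they were 0.27, 0.20 and 0.09. All 3 same-numbered pairs were above 0.1 only for hPSC nucleus and nucleoplasm (lowest 0.12), which were not compared. With the replicate block, 1 member in place of 2 was called in mesoderm nucleus against cytoplasm (MIR4435-2HG, 0.50, edgeR adjusted p = 0.0662), and 2 mesoderm isoform calls were lost, that of MIR22HG (1.15) and ENST00000409569 (-2.07). Genes called for hPSC chromatin against cytoplasm were 8914 in place of 8974.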
